A study of Mus musculus with 8 samples.

Results

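The 10 genes described here encode carriers that recover filtered sugars, phosphate, sulfate, bicarbonate and small organic acids in the proximal tubule of the kidney. They were taken by symbol (Slc34a1, Slc34a3, Slc5a1, Slc5a2, Slc5a8, Slc5a12, Slc2a2, Slc9a3, Slc4a4 and Slc13a1), and all 10 were among the 34450 genes of the deposited table. Slc5a8 and Slc5a12 carry lactate and other monocarboxylates, so they share the location of the others and not their solutes. Poly(A) RNA was sequenced from kidneys of 8-week-old C57BL/6J mice, all of which had undergone ischaemia-reperfusion injury (IRI), in which the blood supply of the kidney is stopped and restored, and were examined at day 3 after it. In the 4 hypoxia libraries the mice had been kept in low oxygen before the injury, which is known as hypoxic preconditioning, and in the 4 normoxia libraries the mice had been kept in normal oxygen. No genotype other than the strain, and no duration or degree of hypoxia, is given by the labels. No uninjured kidney was analysed here. Separate mice are not stated for the libraries, so p-values reflect no more than the variation among these 8, part of which may be technical.

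The proximal tubule recovers most of what the glomerulus filters. The sodium pump on the blood side keeps sodium low inside the cell, and carriers on the brush border use the sodium gradient to draw in glucose, phosphate, sulfate and monocarboxylates. The exchanger encoded by Slc9a3 (NHE3) brings in sodium in return for protons, and the cotransporter encoded by Slc4a4 (NBCe1) passes bicarbonate to the blood. Proximal tubule cells are the main site of damage in ischaemic injury, and loss of these carriers is a known feature of the injured tubule.

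Values are FPKM (fragments scaled by transcript length and by the mapped fragments of the library), as deposited, with no further scaling unless stated. Estimated depth was 8440000 to 14500000 fragments per library, of which nuclear protein-coding genes took between 20.3% and 60.3%. Normoxia library 5 stood apart with relatively high values for Slc34a3 and Slc5a2, which have the shortest annotated exons of the 10 transporters. Among the hypoxia libraries 1 resembled 2 while 3 resembled 4. Ribosomal RNA genes (nuclear and mitochondrial, with AY036118 counted among them) took an estimated 40.9%, 21.5%, 66.3% and 67.4% of the fragments in hypoxia libraries 1 to 4, against 13.5%, 62.95%, 28.0% and 72.5% in normoxia libraries 5 to 8. The part of this share in the transporter values was not tested beyond the scaled values given beside them. Changes are given as the difference of mean log2(FPKM + 0.5), hypoxia over normoxia, with its SE, and were tested with limma over the 14444 genes with a mean of at least 0.5 FPKM. Of these genes 0.305% were higher after hypoxia and 0.602% lower at an adjusted p under 0.05 (44 and 87 genes, together 0.907%). The median change of all tested genes was -0.14. With TMM scaling, which sets libraries level on most of their genes, it was 0.016, so a change relative to all genes is more positive by 0.14 than the value as deposited. All 10 transporters passed the filter, and the lowest normoxia mean among them was 1.39 FPKM. In bulk kidney, fewer proximal cells and less of a transcript per cell cannot be told apart.

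The upstream sequences of 4 of the genes are shown. Slc9a3 and Slc5a8 were chosen as the transporters whose groups did not overlap, Slc34a1 as the most abundant, and Slc5a1 because its window held the same palindrome as that of Slc9a3. Each run is the 250 bases before the RefSeq start of the gene (GRCm38.p6, plus strand, 5′ to 3′), from chr13:74121163-74121412 for Slc9a3, chr10:88885742-88885991 for Slc5a8, chr13:55399398-55399647 for Slc34a1 and chr5:33103969-33104218 for Slc5a1. Capitals mark matches, on either strand, to GTTAAT (half-site of HNF1, a factor of proximal tubule identity), CAAAGT (core of an HNF4 site) or ACGTG (a form of the hypoxia-response element core). Only these exact letters were searched.
Slc9a3: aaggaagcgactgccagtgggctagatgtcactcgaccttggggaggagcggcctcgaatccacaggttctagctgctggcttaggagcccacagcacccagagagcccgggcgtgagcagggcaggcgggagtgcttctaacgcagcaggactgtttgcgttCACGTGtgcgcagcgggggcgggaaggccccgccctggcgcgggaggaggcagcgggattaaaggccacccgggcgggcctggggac
Slc5a8: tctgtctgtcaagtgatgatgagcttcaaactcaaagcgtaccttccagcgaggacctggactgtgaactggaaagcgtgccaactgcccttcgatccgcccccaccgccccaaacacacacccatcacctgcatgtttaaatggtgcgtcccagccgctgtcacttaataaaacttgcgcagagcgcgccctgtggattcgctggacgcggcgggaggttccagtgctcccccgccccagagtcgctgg
Slc34a1: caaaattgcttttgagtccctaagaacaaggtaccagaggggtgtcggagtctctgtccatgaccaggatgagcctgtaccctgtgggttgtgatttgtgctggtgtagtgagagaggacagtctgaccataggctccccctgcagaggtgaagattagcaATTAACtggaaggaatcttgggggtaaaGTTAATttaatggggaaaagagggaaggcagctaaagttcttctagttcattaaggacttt
Slc5a1: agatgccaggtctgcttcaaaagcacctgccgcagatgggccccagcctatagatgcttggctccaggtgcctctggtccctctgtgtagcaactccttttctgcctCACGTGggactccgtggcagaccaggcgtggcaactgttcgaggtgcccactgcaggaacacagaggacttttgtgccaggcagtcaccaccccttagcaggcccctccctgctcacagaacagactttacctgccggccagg
The Slc9a3 window held CACGTG, which reads as ACGTG on both strands, with its bases between 87 and 82 before the start. The Slc5a1 window held the same letters between 143 and 138 before the start. The Slc34a1 window held GTTAAT on each strand, at 89 to 84 and at 61 to 56 bases before the start. No exact match to the 3 motifs lay in the Slc5a8 window, and variants of these letters were not searched. Of 32851 RefSeq windows of the same length, 16.6% held ACGTG, 6.43% held GTTAAT and 12.6% held CAAAGT on either strand. RefSeq gave 8 windows for 7 of the 10 transporters. Among those not printed, the Slc2a2 window and 1 of the 2 Slc4a4 windows each held 1 match to CAAAGT, and the other Slc4a4 window and the Slc34a3 window held no match to the 3 motifs. A match describes letters and does not show a bound site.

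Among the monocarboxylate carriers, Slc5a8 was higher after hypoxia and Slc5a12 was not called. Slc5a8 encodes SMCT1, a sodium-coupled carrier of lactate, pyruvate and ketone bodies that in the mouse kidney lies in the late, straight proximal tubule. It had 23.4, 22.2, 9.36 and 10.3 FPKM in hypoxia libraries 1 to 4, against 4.63, 4.82, 0.82 and 0.45 FPKM in normoxia libraries 5 to 8. Every hypoxia library lay above every normoxia library, and the normoxia libraries themselves fell into a higher pair (5 and 6) and a lower pair (7 and 8). The means were 16.3 ± 7.49 FPKM in the hypoxia group, against 2.68 ± 2.37 FPKM in the normoxia group (SD, n = 4 each). Slc5a8 rose by a log2 change of 2.68 ± 0.65 (SE, limma adjusted p = 0.0456), and it was the only one of the 10 transporters to pass over all genes in the values as deposited. Its call rested on single libraries. The adjusted p in limma was 0.059 without hypoxia library 1, 0.080 without hypoxia library 2, and 0.0625, 0.286 and 0.0974 without normoxia libraries 5, 7 and 8. It was also lost without a filter on low values (adjusted p = 0.429 in limma), with a pseudocount of 1 (adjusted p = 0.06 in limma) and once the dependence on exon length was taken out of each library (adjusted p = 0.0617 in limma), while the log2 change stayed between 2.23 and 3.06 over the libraries left out. With TMM scaling the hypoxia libraries drew together, at 20.04, 16.7, 15.5 and 16.6 scaled FPKM, against 5.52, 5.10, 0.462 and 0.623 in the normoxia libraries, and the call held (log2 change 2.84, limma adjusted p = 0.0437), where 1.22% of all tested genes were called higher and 1.32% lower. An estimated 21 fragments lay behind the lowest value of Slc5a8, in normoxia library 8, and the most was 1680, in hypoxia library 2. Slc5a8 (ENSMUSG00000020062) lies on chromosome 10 from 88885992 to 88929515 on the plus strand of GRCm38, in GENCODE M21.

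Slc5a12 encodes SMCT2, a lower-affinity carrier of the same acids that lies along more of the proximal tubule. It had 6.13, 15.4, 26.6 and 27.7 FPKM in hypoxia libraries 1 to 4, against 12.7, 20.04, 8.55 and 11.8 FPKM in normoxia libraries 5 to 8. Hypoxia library 1 was the lowest of all 8, hypoxia libraries 3 and 4 were the highest, and the groups overlapped. Its means were 18.9 ± 10.2 FPKM in the hypoxia group, against 13.3 ± 4.85 FPKM in the normoxia group (SD, n = 4 each), with a log2 change of 0.35 ± 0.70 (SE) that did not pass (limma adjusted p = 0.999). Slc5a12 was the only transporter lower in both hypoxia libraries 1 and 2 than in both 3 and 4, whereas 6 of the 10 transporters were higher in 1 and 2.

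The ratio of the monocarboxylate carriers within a library does not change when that library is rescaled, apart from the pseudocount. The log2 ratio of Slc5a12 over Slc5a8 was -1.85, -0.52, 1.46 and 1.38 in the hypoxia libraries, against 1.36, 1.95, 2.78 and 3.69 in the normoxia libraries. Slc5a12 exceeded Slc5a8 in all 4 normoxia libraries and in hypoxia libraries 3 and 4, and the groups overlapped by normoxia library 5. The mean ratio was lower after hypoxia, at 0.12 ± 1.60, against 2.45 ± 1.01 after normoxia (SD, n = 4 each), and the difference of -2.33 did not pass (two-sided exact permutation p = 0.0857 over 70 arrangements, 0.143 adjusted over the 4 ratios computed). The smallest p this design allows is 0.0286.

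Slc9a3, the brush-border proton exchanger, was separated between the groups with less spread than Slc5a8. It had 3.99, 8.24, 5.08 and 5.26 FPKM in hypoxia libraries 1 to 4, against 1.08, 1.97, 1.21 and 1.30 FPKM in normoxia libraries 5 to 8. Every hypoxia library lay above every normoxia library, and hypoxia library 2 was the highest while the normoxia libraries lay close together. The means were 5.64 ± 1.82 FPKM in the hypoxia group, against 1.39 ± 0.40 FPKM in the normoxia group (SD, n = 4 each). The log2 change was 1.68 ± 0.49 (SE) and missed the threshold as deposited (limma adjusted p = 0.104, unadjusted p = 0.00206, rank 284 of the 14444 genes). It passed with TMM scaling (log2 change 1.85, limma adjusted p = 0.0341), with quantile normalization (1.86, adjusted p = 0.0258) and with the trend with exon length removed (1.78, adjusted p = 0.0362). In these settings 1.22%, 1.94% and 1.43% of all tested genes were called higher. It did not pass when libraries were scaled to the protein-coding sum (1.87, limma adjusted p = 0.121), where 0.63% of all tested genes were called higher. Over single libraries left out the log2 change stayed between 1.49 and 1.82 and never passed. The limma adjusted p was between 0.106, without normoxia library 5, and 0.25, without normoxia library 7. Estimated fragments behind its values ran from 64 in normoxia library 8 to 643 in hypoxia library 2. Slc9a3 (ENSMUSG00000036123) lies on chromosome 13 from 74121457 to 74169442 on the plus strand.

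Slc5a8 and Slc9a3 were the 2 of 10 transporters whose hypoxia libraries all lay above the normoxia libraries, where 1.86% of all tested genes did. With TMM scaling Slc5a1 joined them, making 3 of 10 beside 6.97% of all tested genes. None of the 10 lay wholly below, where 3.06% of all tested genes did. Lying wholly above was not particular to these transporters. As deposited, Lrp2, Aqp1, Slc3a1, Slc27a2 and Ass1 did so among 17 other markers of the proximal tubule described below. Slc5a3 and Slc16a7 did so among the related carriers, while the rest of both lists overlapped between the groups.

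**Figure D1:**
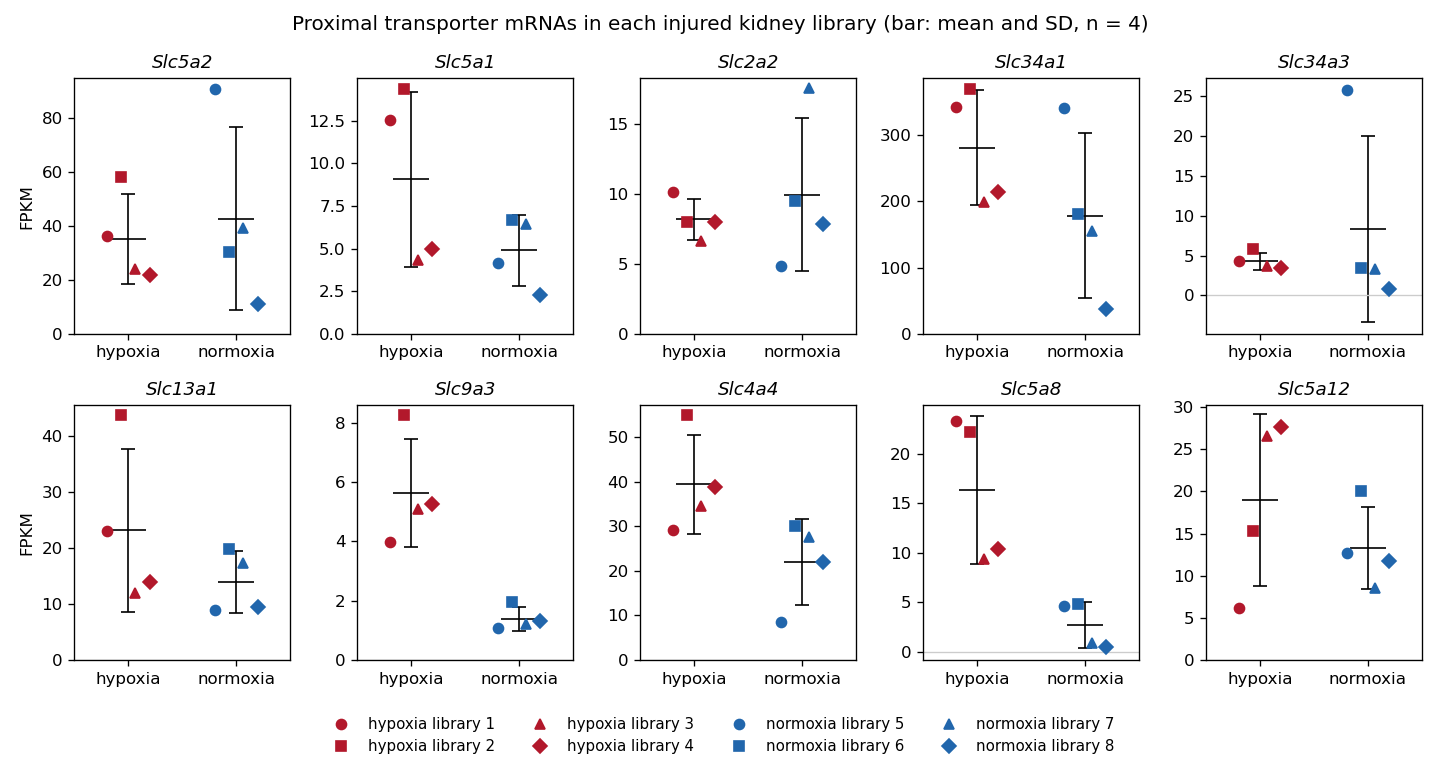
FPKM of each transporter (vertical axes, a scale of its own in each panel) in hypoxia libraries 1 to 4 (left, red) and normoxia libraries 5 to 8 (right, blue), with the mean and SD of each group as a bar. The groups separate for Slc9a3 and Slc5a8, while Slc34a3 has 25.8 FPKM in normoxia library 5 and at most 5.77 FPKM in any other library.

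The bicarbonate exit path was less clearly separated. Slc4a4 had 29.2, 54.9, 34.6 and 38.8 FPKM in hypoxia libraries 1 to 4, against 8.46, 29.98, 27.5 and 21.97 FPKM in normoxia libraries 5 to 8. Only normoxia library 6 reached into the hypoxia range, above hypoxia library 1, and normoxia library 5 was far below the others. Slc4a4 averaged 39.4 ± 11.1 FPKM in the hypoxia group, against 21.98 ± 9.61 FPKM in the normoxia group (SD, n = 4 each). Its log2 change of 0.93 ± 0.73 (SE) did not pass (limma adjusted p = 0.864). Without normoxia library 5 the log2 change was 0.54 (limma adjusted p = 0.914). At 10815 bases of annotated exon Slc4a4 is the longest of the 10, and it lies on chromosome 5 from 88886818 to 89239653.

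For glucose, no carrier was called in any setting tried. Slc5a2 encodes SGLT2, the high-capacity carrier of the early proximal tubule. It had 36.2, 58.4, 23.96 and 21.9 FPKM in hypoxia libraries 1 to 4, against 90.8, 30.5, 39.1 and 10.9 FPKM in normoxia libraries 5 to 8. Normoxia libraries 5 and 8 were the highest and the lowest of all 8, so the normoxia group enclosed the hypoxia group. The means were 35.1 ± 16.7 FPKM in the hypoxia group, against 42.8 ± 34.1 FPKM in the normoxia group (SD, n = 4 each), and the log2 change was -0.03 ± 0.79 (SE, limma adjusted p = 0.999).

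Slc5a1 encodes SGLT1, which takes up the glucose left over in the late proximal tubule. It had 12.5, 14.4, 4.35 and 4.95 FPKM in hypoxia libraries 1 to 4, against 4.13, 6.69, 6.46 and 2.26 FPKM in normoxia libraries 5 to 8. Hypoxia libraries 1 and 2 stood above all others, while 3 and 4 lay within the normoxia range. With TMM scaling the values were 10.7, 10.8, 7.19 and 7.97 after hypoxia, against 4.93, 7.08, 3.64 and 3.13 after normoxia, and the groups no longer overlapped. The log2 change was 0.75 ± 0.61 (SE, limma adjusted p = 0.874) as deposited and 0.94 ± 0.31 (SE, limma adjusted p = 0.163) with TMM scaling, and neither passed.

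Slc2a2 encodes GLUT2, through which glucose leaves the cell toward the blood. It had 10.1, 8.00, 6.60 and 8.02 FPKM in hypoxia libraries 1 to 4, against 4.82, 9.47, 17.6 and 7.85 FPKM in normoxia libraries 5 to 8. The hypoxia values lay close together inside the normoxia range. The means were 8.19 ± 1.46 FPKM in the hypoxia group, against 9.93 ± 5.46 FPKM in the normoxia group (SD, n = 4 each), and the log2 change was -0.14 ± 0.62 (SE, limma adjusted p = 0.999).

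The 2 glucose ratios did not separate the groups. The log2 ratio of Slc5a2 over Slc5a1 was 1.49, 1.99, 2.33 and 2.04 in the hypoxia libraries, against 4.30, 2.11, 2.51 and 2.05 in the normoxia libraries. Apart from normoxia library 5, all libraries lay between 1.49 and 2.51. The difference was -0.78 (two-sided exact permutation p = 0.143, 0.143 adjusted over the 4 ratios) and was -0.26 without normoxia library 5. The log2 ratio of Slc2a2 over Slc2a1 (GLUT1, the general glucose carrier) averaged 0.13 ± 0.68 after hypoxia and 1.03 ± 0.58 after normoxia (SD, n = 4 each), a difference of -0.89 (two-sided exact permutation p = 0.143, 0.143 adjusted over the 4 ratios).

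For phosphate, Slc34a1 was the most abundant of the 10 transcripts and Slc34a3 one of the least. Slc34a1 encodes NaPi-IIa, the main phosphate carrier of the mouse proximal tubule. It had 343, 369, 199 and 214 FPKM in hypoxia libraries 1 to 4, against 340.0, 181, 155 and 37.6 FPKM in normoxia libraries 5 to 8. Normoxia library 5 matched the upper hypoxia pair, and the other normoxia libraries lay below every hypoxia library. The log2 change was 0.97 ± 0.85 (SE, limma adjusted p = 0.898), and over single libraries left out it lay between 0.35, without normoxia library 8, and 1.41, without normoxia library 5, with no call. With TMM scaling and without normoxia library 5 it was 1.71 ± 0.43 (SE, limma adjusted p = 0.0408), in a setting where 5.77% of all tested genes were called higher. In that setting Slc5a8 (log2 change 3.30, limma adjusted p = 0.0136) and Slc9a3 (1.84, limma adjusted p = 0.0263) also passed, which makes 3 of the 10 transporters.

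Slc34a3 encodes NaPi-IIc, the minor sodium-phosphate carrier of the same membrane. It had 4.33, 5.77, 3.64 and 3.40 FPKM in hypoxia libraries 1 to 4, against 25.8, 3.39, 3.32 and 0.81 FPKM in normoxia libraries 5 to 8. Slc34a3 averaged 4.29 ± 1.07 FPKM in the hypoxia group, against 8.33 ± 11.7 FPKM in the normoxia group (SD, n = 4 each), and without normoxia library 5 the normoxia mean was 2.51 ± 1.47 FPKM (SD, n = 3). The log2 change was -0.02 ± 0.68 (SE, limma adjusted p = 0.999) as deposited and 1.10 ± 0.34 (SE, limma adjusted p = 0.0773) with TMM scaling without that library.

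The log2 ratio of Slc34a1 over Slc34a3 was 6.15, 5.88, 5.59 and 5.78 in the hypoxia libraries, against 3.70, 5.54, 5.35 and 4.86 in the normoxia libraries. Every hypoxia library lay above every normoxia library, by a gap that was narrow between hypoxia library 3 and normoxia library 6. The means were 5.85 ± 0.23 after hypoxia and 4.86 ± 0.83 after normoxia (SD, n = 4 each), a difference of 0.99 with the smallest p that 70 arrangements can give (two-sided exact permutation p = 0.0286). It did not pass when adjusted over the 4 ratios (exact permutation p adjusted to 0.114). The design fixes that outcome where only 1 of the 4 ratios reaches the smallest p, so it says nothing further about this ratio. The difference was 0.60 without normoxia library 5.

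**Figure D2:**
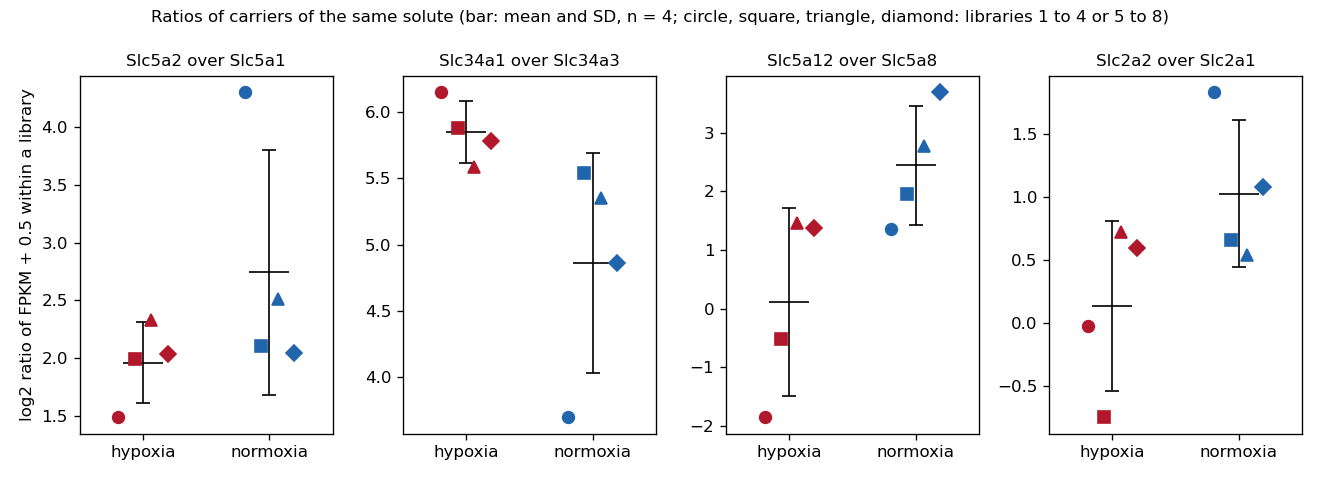
Log2 ratio of FPKM + 0.5 of 2 carriers of the same kind of solute within each library (vertical axes) for hypoxia libraries (left, red) and normoxia libraries (right, blue), with mean and SD of each group as a bar. The groups do not overlap for Slc34a1 over Slc34a3, where normoxia library 5 is lowest at 3.70, and overlap for the other 3 ratios.

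For sulfate, Slc13a1 encodes NaS1, the brush-border sodium-sulfate carrier. It had 23.04, 43.9, 12.1 and 13.99 FPKM in hypoxia libraries 1 to 4, against 9.02, 19.8, 17.4 and 9.53 FPKM in normoxia libraries 5 to 8. Hypoxia libraries 1 and 2 were the highest, and 3 and 4 lay within the normoxia range. With TMM scaling hypoxia libraries 1, 3 and 4 lay together and the split was gone, at 19.8, 33.05, 19.9 and 22.5 scaled FPKM in the hypoxia libraries, against 10.8, 21.0, 9.79 and 13.2 in the normoxia libraries. Slc13a1 averaged 23.2 ± 14.6 FPKM in the hypoxia group, against 13.9 ± 5.49 FPKM in the normoxia group (SD, n = 4 each). The log2 change was 0.61 ± 0.70 (SE, limma adjusted p = 0.954). Slc13a1 and Slc5a1 followed each other most closely of all 45 pairs of transporters, with a root mean square difference of 0.291 between their mean-centred log2 profiles over the 8 libraries. The pair farthest apart was Slc5a8 and Slc2a2, at 1.81.

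**Figure D3:**
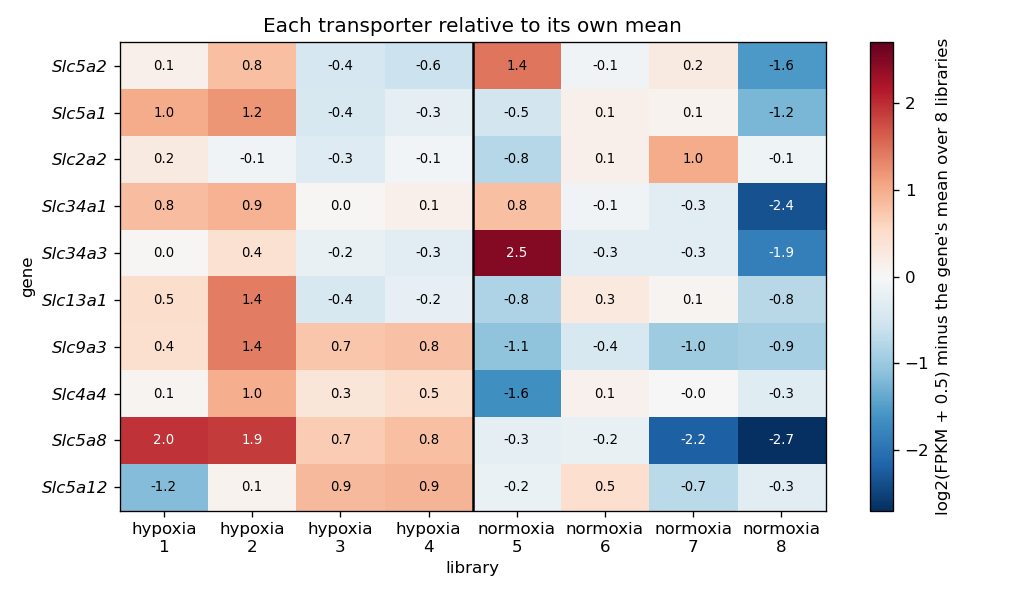
Log2(FPKM + 0.5) of each transporter (rows) minus its own mean over the 8 libraries, in hypoxia libraries (left of the line) and normoxia libraries (right of the line), from blue (lower) to red (higher). Slc9a3 is above its mean in all 4 hypoxia libraries and below it in all 4 normoxia libraries, as is Slc5a8, and normoxia library 8 is below the mean for all 10.

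As a group, 7 of the 10 transporters had a log2 change above 0 as deposited, with a median of 0.68, beside a median of -0.14 over all tested genes, of which 39.0% were above 0. Slc34a3, Slc5a2 and Slc2a2 were the 3 below 0, each by less than its SE, and with TMM scaling all 3 were above 0. Without normoxia library 5 as well, Slc2a2 was below 0 again (-0.12). With TMM scaling the median was 0.87, beside 0.016 over all tested genes. Of all 14444 genes, 33.6% of the 131 calls were higher after hypoxia as deposited, and with TMM scaling 48.1% of its calls were (176 higher and 190 lower).

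**Figure D4:**
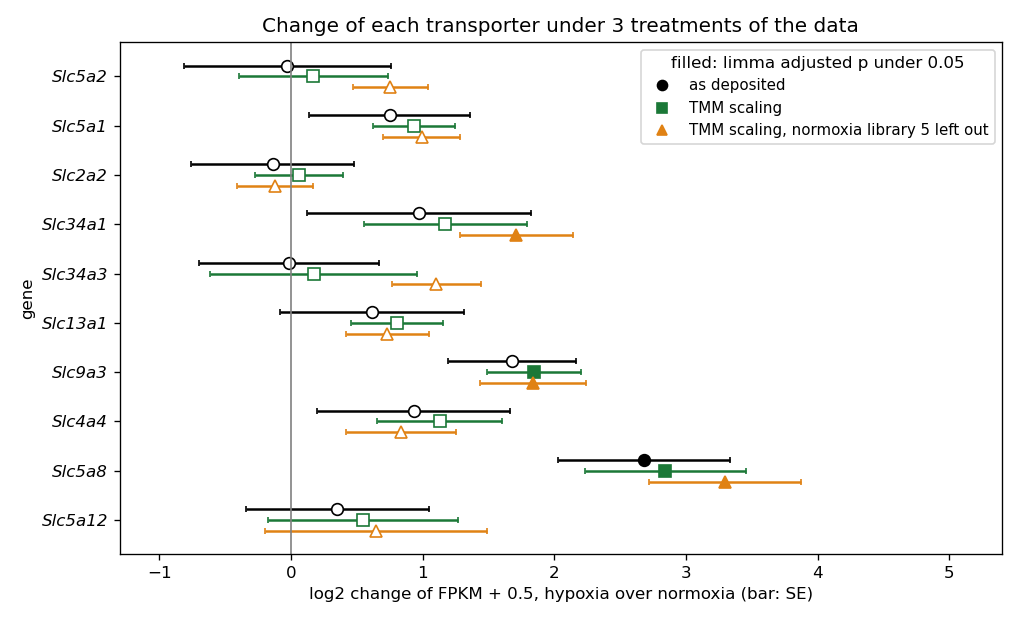
Log2 change of FPKM + 0.5, hypoxia over normoxia (horizontal axis, bars are SE), of each transporter as deposited, with TMM scaling, and with TMM scaling without normoxia library 5, with filled symbols where the limma adjusted p is under 0.05. Slc5a8 is filled in all 3, Slc9a3 in the 2 scaled ones and Slc34a1 in the last, while Slc34a3, Slc5a2 and Slc2a2 are just below 0 as deposited and above it with TMM scaling, and Slc2a2 is below it again in the last.

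In each group the order of mean FPKM, which is scaled by transcript length, was led by Slc34a1 (281 ± 87.1 FPKM in the hypoxia group, against 178 ± 124 FPKM in the normoxia group, SD, n = 4 each). After hypoxia it was followed by Slc4a4, Slc5a2, Slc13a1, Slc5a12, Slc5a8, Slc5a1, Slc2a2, Slc9a3 and Slc34a3. Only the step from Slc34a1 to Slc4a4 had ranges over the 4 libraries that did not overlap. Within libraries, Slc5a2 also lay above Slc13a1, and Slc5a8 above Slc5a1, in all 4 hypoxia libraries, while every other neighbour was higher in 2 or 3 of the 4. After normoxia Slc5a2 came after Slc34a1, then Slc4a4, Slc13a1, Slc5a12, Slc2a2, Slc34a3, Slc5a1, Slc5a8 and Slc9a3, and all neighbouring ranges overlapped. Within libraries, Slc34a1 nevertheless lay above Slc5a2 in all 4 normoxia libraries, and every other neighbour was higher in 1 to 3 of the 4.

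Normoxia library 5 did not deviate in 1 direction across the transporters. Against the mean of normoxia libraries 6, 7 and 8 it was higher by 3.29 for Slc34a3, by 1.92 for Slc5a2, by 1.73 for Slc34a1 and by 1.45 for Slc5a8 on the log2 scale. The same difference was -1.58 for Slc4a4, -1.11 for Slc2a2 and -0.69 for Slc13a1. It was 0.002 for Slc5a12, -0.16 for Slc5a1 and -0.32 for Slc9a3. Slc5a12 (4061 bases) and Slc5a1 (4104 bases) are both shorter than Slc34a1 and Slc5a8. Slc34a3 has the shortest annotated exons of the 10 (2358 bases), and Slc4a4 the longest. Over the 10 transporters the difference and the exon length had a Spearman correlation of -0.891, a description across genes that share 4 libraries and are not independent. The part of length in the results was not tested beyond the values after removing the length trend.

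**Figure D5:**
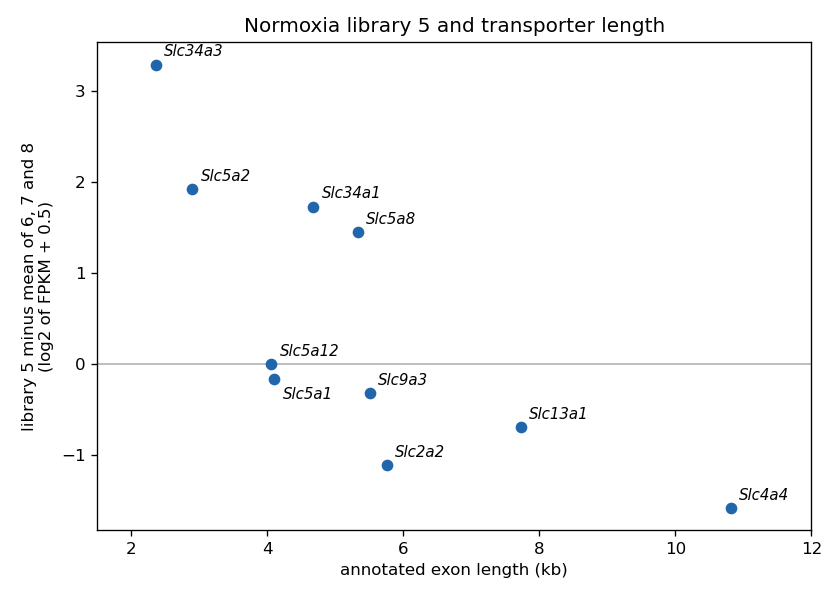
Normoxia library 5 minus the mean of normoxia libraries 6, 7 and 8, in log2 of FPKM + 0.5 (vertical axis), against annotated exon length in kb (horizontal axis), 1 point for each transporter. The shortest, Slc34a3, is highest at 3.29 and the longest, Slc4a4, is lowest at -1.58.

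Other carriers of the same solutes were mostly not called. Of 21 related carriers 20 were tested, and 1 rose and none fell, with a median of 0.55. The riser was Slc16a7 (MCT2), a proton-coupled carrier of lactate, pyruvate and ketone bodies, which overlap with the solutes of Slc5a8. It had 7.01, 8.48, 6.90 and 7.63 FPKM in hypoxia libraries 1 to 4, against 0.43, 1.39, 2.12 and 1.38 FPKM in normoxia libraries 5 to 8, a log2 change of 2.22 ± 0.51 (SE, limma adjusted p = 0.0327). The groups were far apart. The call was lost when any of hypoxia libraries 2 and 4 and normoxia libraries 5, 6 and 7 was left out (limma adjusted p between 0.0376 and 0.0639 over the 8 omissions), without the filter (0.27) and with protein-coding scaling (0.0642). Slc16a1 (MCT1), its widely expressed relative, averaged 4.89 ± 1.66 FPKM in the hypoxia group, against 4.83 ± 3.46 FPKM in the normoxia group (SD, n = 4 each, limma adjusted p = 0.999). The sodium-myo-inositol carrier Slc5a3, next in p among these carriers, had a log2 change of 1.42 (limma adjusted p = 0.423).

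None of 17 scaffolds, hormone receptors and transcription factors that act on these carriers passed in either direction, and their median was 0.30. The members with the smallest p were Kl, the co-receptor through which FGF23 lowers phosphate uptake (log2 change 1.51, limma adjusted p = 0.474), and Sgk1, a kinase that activates several sodium carriers (1.46, limma adjusted p = 0.491). The scaffold Pdzk1, which holds NaPi-IIa at the brush border, averaged 91.9 ± 42.0 FPKM in the hypoxia group, against 77.4 ± 33.5 FPKM in the normoxia group (SD, n = 4 each, limma adjusted p = 0.999). Of 14 genes of the sodium pump, potassium channels, carbonic anhydrases and ammonia production none passed in either direction, with a median of 1.13. Slc38a3, a glutamine carrier that feeds ammonia production, came nearest (log2 change 2.15, limma adjusted p = 0.0812), followed by Pck1, the gluconeogenic enzyme that rises in acidosis (2.82, limma adjusted p = 0.199). Hypoxia library 2 held 1664 FPKM of Pck1, the remaining hypoxia libraries 61.0 to 121 FPKM and the normoxia libraries 9.84 to 55.1 FPKM.

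Other markers of the proximal tubule were mostly above 0 and not called, apart from those of its straight part. Of 17 other proximal tubule markers 16 had a log2 change above 0 and none passed (median 1.16). The smallest p were those of the water channel Aqp1 (log2 change 2.32, limma adjusted p = 0.238) and the amino acid carrier subunit Slc3a1 (1.69, limma adjusted p = 0.481). Lrp2 (megalin), a defining marker, had 54.3 to 90.3 FPKM in the hypoxia libraries and 22.6 to 53.9 FPKM in the normoxia libraries. Its groups did not overlap, by a narrow gap between hypoxia library 2 and normoxia library 6. Its log2 change of 1.18 was not called (limma adjusted p = 0.756). Every hypoxia library also lay above every normoxia library for Aqp1, Slc3a1, Slc27a2 and Ass1, the last by a narrow gap (147.71 against 147.37 FPKM). The groups of the other proximal tubule markers overlapped. Of all tested genes 1.86% lay wholly above. The 17 proximal tubule markers summed to 1093 to 2942 FPKM in the hypoxia libraries. In normoxia libraries 6 to 8 the sum was 243 to 905 FPKM, and in normoxia library 5 it was 3267 FPKM. Of 4 markers of the straight proximal tubule 3 rose (Slc22a7, Slc7a13 and Cyp7b1), with sums of 41.3 to 149 FPKM after hypoxia and 6.76 to 23.1 FPKM after normoxia, and Slc22a7 was listed at 0 in normoxia libraries 6 and 8. Atp11a, which was not called, made up 11.1 to 21.45 FPKM of these sums after hypoxia and 5.82 to 12.1 FPKM after normoxia. The log2 changes of the 3 called markers were 3.72 for Slc22a7, 3.58 for Slc7a13 and 2.59 for Cyp7b1 (limma adjusted p = 0.00345, 0.0279 and 0.0243). All 3 calls were lost without normoxia library 7, and that of Cyp7b1 also without hypoxia library 2 or normoxia library 5 (limma adjusted p at most 0.0962, 0.25 and 0.129 over the omissions).

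Among markers of injury and of other cell types, some were called. Of 8 injury markers 2 fell (Krt20 by 3.10 and Sox9 by 2.14 on the log2 scale, limma adjusted p = 0.0385 and 0.0221), and none of the 8 had a log2 change above 0 (median -2.61). Their sum was 262 to 2508 FPKM after hypoxia and 1697 to 4946 FPKM after normoxia, of which Spp1, which was not called, made up 224 to 2259 FPKM after hypoxia and 528 to 3740 FPKM after normoxia. Of 4 distal tubule markers 2 rose (Calb1 with a log2 change of 3.10 and Pvalb with 3.12, limma adjusted p = 0.0198 and 0.00289), with sums of 49.8 to 93.0 FPKM after hypoxia and 12.1 to 30.7 FPKM after normoxia. Slc12a3, which was not called, made up 28.1 to 51.2 FPKM of these sums after hypoxia and 10.3 to 25.2 FPKM after normoxia. Normoxia libraries 6, 7 and 8 listed Pvalb at 0. The call of Pvalb held in every omission of 1 library, while those of Calb1 and Sox9 were lost without normoxia library 7 and that of Krt20 without any of hypoxia libraries 3 and 4 and normoxia libraries 5 and 7. None of 7 tested leukocyte markers of a list of 9 passed (10.7 to 38.5 FPKM after hypoxia and 38.3 to 300 FPKM after normoxia), nor did any of 5 fibroblast markers (24.2 to 53.6 FPKM after hypoxia and 95.2 to 287 FPKM after normoxia). The median log2 change was -1.77 for the leukocyte markers, with 0 of 7 above 0, and -2.07 for the fibroblast markers, with 1 of 5 above 0. Those nearest were the macrophage genes Cd68 (log2 change -2.56, limma adjusted p = 0.06) and Adgre1 (-1.52, 0.181) and the collagens Col1a1 (-2.48, 0.0882) and Col3a1 (-2.23, 0.162). None of 4 thick ascending limb, 8 collecting duct, 4 podocyte and 5 endothelial markers passed. Nearest in each were Slc12a1 (2.10, limma adjusted p = 0.268) and Kcnj1 (1.52, 0.471), Aqp3 (1.95, 0.196) and Aqp2 (2.42, 0.224), Wt1 (0.50, 0.874) and Podxl (0.59, 0.963), and Flt1 (0.64, 0.82) and Kdr (0.57, 0.884). Summed levels after hypoxia and after normoxia were 357 to 1620 and 148 to 551 FPKM for thick limb, 80.4 to 276 and 35.04 to 126 FPKM for collecting duct, 24.2 to 42.01 and 13.6 to 53.3 FPKM for podocyte, and 16.6 to 28.4 and 7.34 to 30.97 FPKM for endothelial markers. The part of these cell types in the transporter values was not tested.

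The 5 genes nearest to the mean profile of the 10 transporters, among 1995 other genes with a mean of at least 10 FPKM, were Acsm2, Abca3, Arsb, Xylb and Mlxipl, at a root mean square difference of 0.215 to 0.277 over the 8 libraries. Acsm2 is itself among the proximal markers above. None of these 5 was called (limma adjusted p between 0.90 and 0.978).

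Annotated exons of Slc5a2 overlap those of BC017158 on the opposite strand by 597 bases, and those of Slc34a1 overlap Pfn3 on the opposite strand by 545 bases. The libraries were stranded, but whether counting used the strand is not given in the sources used here, so reads of such partners cannot be told apart. BC017158 had 1.48 to 7.77 FPKM over the 8 libraries, against 10.9 to 90.8 FPKM for Slc5a2.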

How the data were processed

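The authors deposited 1 table of FPKM per gene and library, per the file headers, with no recorded scaling between libraries. The submitters' processing notes name the tools HISAT2, StringTie and edgeR and give neither versions nor roles. Libraries were TruSeq stranded poly(A), per the labels' protocols, and the build was not given in the sources used here. All 34450 identifiers matched GENCODE M21 (GRCm38).

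Log2(FPKM + 0.5) was tested, in genes with a mean of at least 0.5 FPKM, with limma 3.58.1 under R 4.3.3 (two-sided moderated test with trend, group as the only factor) with Benjamini-Hochberg adjustment over all tested genes, after the step was tested on simulated data. The pseudocount shrinks the fold change of genes at low levels. Ratios were tested by exact permutation. Depth comes from the step between low FPKM values of single-exon genes, so it and the fragments derived from it with the whole annotated exon length are approximate. TMM factors came from the published formula (trimming 30% of ratios and 5% of levels at each end).

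All 10 transporters were named by rule, with passing members of each list, or up to 2 of the smallest p where none passed, and the 5 genes of most similar profile. Slc16a1, Slc5a3, Pdzk1, Lrp2, Slc27a2 and Ass1 were chosen after their values were seen. The members, lists, tests and alternatives were chosen with earlier results of these data known. Replicate numbers run from 1 to 8 across the groups and pair nothing.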

Additional observations from a re-analysis of the deposited data

Results flagged for a closer look

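Of 28 groups of 4 values examined (10 transporters and 4 ratios in each of the 2 conditions), 1 held a library far from the others, where chance gives about 1 in 20. Slc34a3 had 25.8 FPKM in normoxia library 5, and its gap to the nearest normoxia library was 0.897 of the whole range of the group, above Dixon's 95% critical value for 4 samples.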

How the results depend on the processing

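No paired analysis was possible because the groups share no replicate number. Slc5a8, called as deposited, was not called with a pseudocount of 1 (log2 change 2.40), with no filter (2.68, limma adjusted p = 0.429), with the length trend removed (2.78) or with library weights (1.38, limma adjusted p = 0.0584). It stayed called with a filter of 2 FPKM, quantile normalization, protein-coding scaling and a pseudocount of 0.1 (limma adjusted p = 0.00951, 0.0279, 0.0357 and 0.0469). Slc9a3 passed with TMM scaling (1.85), TMM scaling without normoxia library 5 (1.84), quantile normalization (1.86), the length trend removed (1.78) and library weights (1.22, limma adjusted p = 0.00349), and Slc34a1 only with TMM scaling without that library (1.71). The weights did not converge and gave 45.8 to normoxia library 6 and at most 1.41 to any other, so they rest mainly on that library. They turned Slc5a1 (-0.015), Slc5a12 (-0.044) and Slc13a1 (-0.21), none of them called. The uncalled change of Slc34a3 also turned, to 0.069 with a pseudocount of 0.1, 0.17 with TMM scaling, 1.10 with TMM scaling without normoxia library 5, 0.45 with quantile normalization, 0.28 with protein-coding scaling, 0.23 with the length trend removed and 0.19 with weights. Slc5a2 turned to 0.17 with TMM, 0.75 with TMM without normoxia library 5, 0.38 with quantile, 0.22 with protein-coding scaling and 0.19 with the length trend removed, and Slc2a2 to 0.059 with TMM, 0.050 with quantile and 0.088 with protein-coding scaling. With single libraries left out, the changes of Slc2a2, Slc34a3, Slc5a2 and Slc5a8 ranged from -0.41 to 0.17, -0.64 to 0.81, -0.55 to 0.45 and 2.23 to 3.06. Those of Slc34a1, Slc13a1, Slc5a12, Slc5a1 and Slc4a4, none called in any omission, ranged from 0.35 (without normoxia library 8) to 1.41, 0.25 (without hypoxia library 2) to 0.86, 0.11 (without hypoxia library 4) to 0.80 (without hypoxia library 1), 0.46 (without normoxia library 8) to 1.02 and 0.54 (without normoxia library 5) to 1.12.

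The number of transporters called higher was 1 as deposited, 2 with TMM or quantile scaling, 3 with TMM scaling without normoxia library 5, 0 without the filter or with a pseudocount of 1, and 0 to 1 with single libraries left out. Genes called higher and lower, 44 and 87 as deposited, were 176 and 190 (TMM), 831 and 762 (TMM without normoxia library 5), 280 and 349 (quantile), 91 and 141 (protein-coding), 207 and 257 (length trend), and 360 and 1297 (weights). The lower count was 47 with a pseudocount of 1. Without the filter 0 were higher and 0 lower in limma, although 665 and 1356 had an unadjusted p under 0.05. With single libraries left out the counts ranged from 11 to 67 and from 4 to 237, the lowest without normoxia library 7.

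Related carriers called higher were 7 with TMM scaling without normoxia library 5, 3 with weights (and 1 lower), 2 with the length trend removed, 0 with protein-coding scaling or no filter, and 0 to 1 over libraries left out. Pump and acid-base genes called higher were 1 with TMM, 7 with TMM without normoxia library 5, 3 with quantile, 1 with protein-coding scaling, 2 with the length trend removed, 2 with weights (and 1 lower), and 0 to 1 over libraries left out. Regulators were 4 with TMM without normoxia library 5 and 1 with the length trend removed. Proximal markers were 2 with TMM, 11 with TMM without normoxia library 5, 4 with quantile, 2 with protein-coding scaling and 2 with the length trend removed. Markers of other cell types and injury, counted here together with those of the straight proximal tubule, were 5 higher and 2 lower as deposited. Slc22a7, Slc7a13 and Cyp7b1 of the straight proximal tubule are among the 5, with Calb1 and Pvalb of the distal tubule. The higher were 12 with TMM without normoxia library 5, 11 with weights, 10 with quantile, 10 with the length trend removed, 0 with no filter, and 1 to 5 over libraries left out. The lower were 8 with TMM, 12 with TMM without normoxia library 5, 10 with quantile, 5 with protein-coding scaling, 8 with the length trend removed, 13 with weights, 6 with a filter of 2 FPKM, 1 with a pseudocount of 1, 0 with no filter, and 0 to 7 over libraries left out. None of the settings run changed the direction of Slc5a8, Slc9a3, Slc34a1 or Slc4a4. The ratios, recomputed only with pseudocounts of 0.1 and 1, with the length trend removed and with single libraries left out, kept their direction. The design leaves their calls little room, since 1 ratio at the smallest exact permutation p of 0.0286 adjusts to 0.114. Why these results moved was not tested.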
